A study of Mus musculus with 3 samples.

Results

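The distal segment of mouse chromosome 4 that holds Idd9, a diabetes locus of the NOD mouse, was examined gene by gene in NOD and B6 blastocysts. Genes were taken from the count table by position, with a start between 128 and 150 Mb of chromosome 4 in mm10. Rows of non-coding RefSeq transcripts and symbols beginning with Zfp, Eif, Mir, Snor, Srsf or Hnrnp were left out, which removed 61 of 403 rows. The remaining 342 genes are those described here, of 24063 in the table. The rule uses position and symbol and no measured value, and the segment was chosen with earlier results of these data known.

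The samples were untreated blastocysts of 2 inbred strains, C57BL/6 (B6, 1 library) and NOD (2 libraries, NOD 1 and NOD 2). NOD mice develop autoimmune diabetes spontaneously, B6 mice do not, and the comparison asks which genes differ in expression between the strains before implantation. The labels give the input as whole blastocysts and the study's methods give it as single inner cell masses, and neither gives the sex of the embryos. With 1 library, the B6 group has no replicate error of its own.

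Idd loci are chromosome intervals found by crossing NOD with resistant strains and following diabetes in the offspring and in congenic mice, which carry an interval of one strain in the genome of the other. Idd9 lies in distal chromosome 4, where the immune candidates include receptors of the TNF receptor family (Tnfrsf8, which encodes CD30, and Tnfrsf1b, which encodes TNFR2) and the kinases Pik3cd and Mtor, which act in lymphocyte growth signalling. The same stretch of chromosome holds genes of general use to an embryo, among them the chromatin remodeller Arid1a and the RNA-binding protein Lin28a. It also holds tandem families expressed in oocytes, germ cells and early embryos, the Pramel and Oog genes and a cluster of KRAB zinc finger genes.

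The B6 library held 12505685 counts, NOD 1 held 33891715 and NOD 2 held 36171013. Values are given as CPM, counts scaled to a common library size with edgeR's TMM factors, and 1 count is worth 0.0734 CPM (B6), 0.0303 (NOD 1) or 0.0294 (NOD 2). Where no read was counted, the data allow a level of up to 3 counts, which is 0.220, 0.0908 and 0.0882 CPM, and this limit covers counting error only. Of 10 markers of the inner cell mass and epiblast, edgeR called 4 higher and 1 lower in NOD, and their summed level was 1358 CPM in B6 against 3070 (NOD 1) and 4063 (NOD 2). Most of that sum was Dppa5a (849, 2251 and 2966 CPM), and Sox2, Esrrb and Klf2 were below B6 in both NOD libraries. The summed level of 10 trophectoderm markers ran the other way, at 3353, 2313 and 2033 CPM. Its largest part was Krt18 (1464, 812 and 852 CPM). Of the 9 tested, edgeR called 0, with 6 at an unadjusted p under 0.05, and DESeq2 called 1 higher and 3 lower. Id2 and Gata2, among those tested, were above B6 in both NOD libraries. Of 8 primitive endoderm markers, 7 were tested, with Pdgfra called higher and Gata6 lower by edgeR. The 8 leukocyte markers summed to 0.367, 0.363 and 1.47 CPM, and Ptprc, Lyz2, Fcer1g and Cd79a were at 0 counts in each library. In such bulk samples, fewer cells of a type and less RNA per cell cannot be told apart.

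Of the 342 genes of the segment, 49 had no count in any library, 293 had at least 1 count, and 272 had enough counts to be tested. The B6 library had counts for 248 of the 342, NOD 1 for 263 and NOD 2 for 276. The segment's share of all counts was 2.04% in B6 against 1.60% (NOD 1) and 1.64% (NOD 2). A gene was called when its Benjamini-Hochberg adjusted p in edgeR's quasi-likelihood test was under 0.05 and it changed at least 2-fold. By this rule 8 genes of the segment were higher in NOD, which is 2.94% of those tested, against 10.3% of all 14456 genes tested. A further 28 were lower in NOD, which is 10.3% of those tested, against 7.39% of all genes. These counts depend on the test. DESeq2 called 21 higher (7.72%, against 16.2% of all genes) and 44 lower (16.2%, against 12.9%), with 23 genes of the segment given no adjusted p. With upper-quartile factors edgeR called 6 higher (2.21%, against 7.03%) and 15 lower (5.51%, against 4.85%). limma-voom and edgeR without a filter on low counts called 0 in the whole table, with 77 and 98 genes of the segment at an unadjusted p under 0.05. Of the 272 genes tested, 33 had 0 counts in B6 and passed the filter through NOD alone, and 1 had 0 counts in both NOD libraries. The median log2 fold change of NOD over B6 was -0.18 in the segment and 0.26 over all genes. Both NOD libraries lay above B6 for 95 genes of the segment (34.9%, against 45.3% of all genes) and below B6 for 127 (46.7%, against 39.4%), and for 50 the B6 value lay between them. Calls rest on 1 residual degree of freedom with a spread moderated across genes, and an exact permutation test of 1 library against 2 cannot give a p below 0.333.

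**Figure D1:**
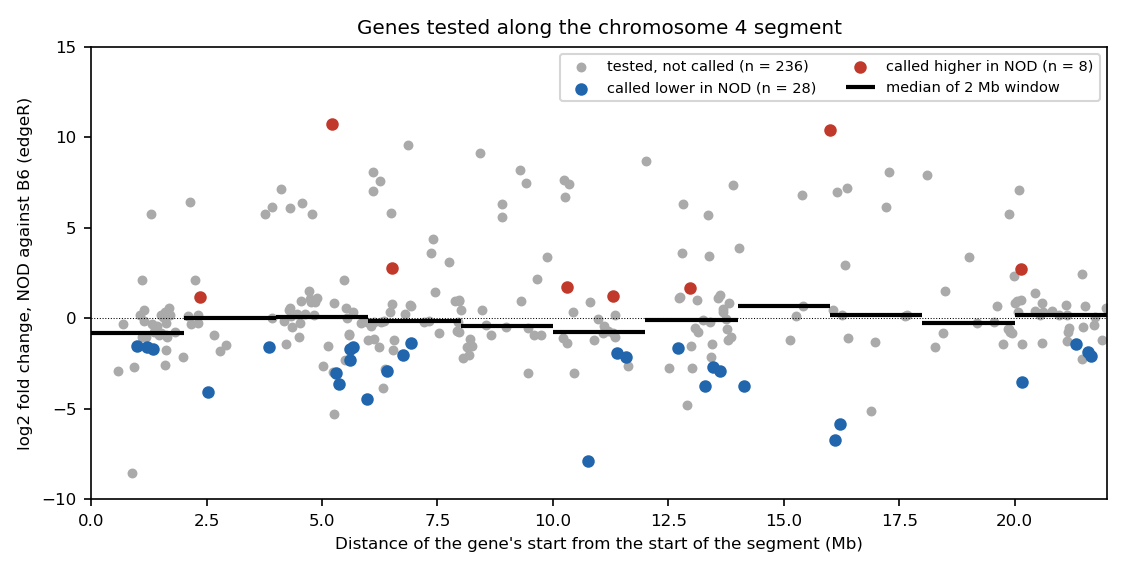
Each point is 1 of the 272 genes tested, placed by the distance of its start from the start of the segment (Mb, x axis) and its edgeR log2 fold change of NOD against B6 (y axis), and black lines give the median of each 2 Mb window. Calls in both directions are spread over the segment, the first and sixth windows have the lowest medians (-0.80 and -0.77), and the height of points of genes with 0 counts in B6 depends on the prior count of the fit.

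The rest of chromosome 4 gives a second background. Among 602 genes of chromosome 4 outside the segment, chosen by the same symbol rule and tested, 77 (12.8%) were higher and 50 (8.31%) lower in NOD, with a median of 0.26. The 84 genes tested beyond 150 Mb, toward the end of the chromosome, had a median of -0.71, with 3 called higher and 16 lower. That is 3.57% higher and 19% lower, against 2.94% and 10.3% in the segment and 10.3% and 7.39% of all genes. The figures of these neighbouring stretches were not set against each other by a test.

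Exon length and base composition moved with the fold change over the whole table and in the segment. Over all genes tested, the median log2 fold change was 0.68 for genes of up to 1500 exonic bases and -0.37 for those over 4500. In the segment the corresponding medians were 0.35 (55 genes) and -0.93 (50 genes). The genes of the segment called lower had a median exon length of 3460 bases and those called higher 1660. Over all genes tested these medians were 3200 and 2000 bases. By GC content of the longest transcript, when all genes were split into 3 equal classes, the class with the most GC (over 53.2%) had a median of -0.37 and the one with the least (up to 47.0%) 0.74. The GC-rich class took in 58.3% of the segment's genes, 158 in all, with a median of -0.30. The part of length and GC content in the segment's balance of calls was not tested.

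**Figure D2:**
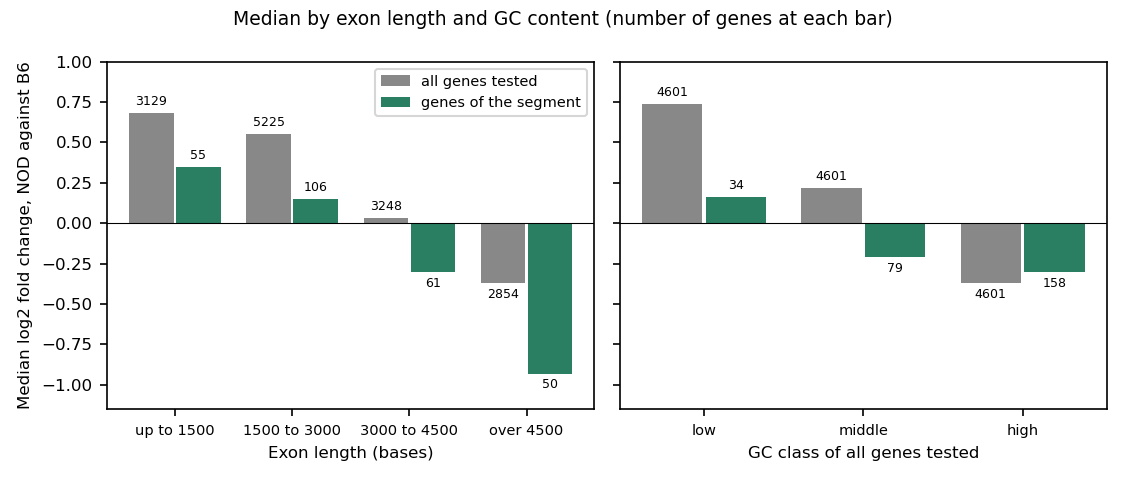
Bars give the median log2 fold change of NOD against B6 (y axis) in classes of exon length in bases (left) and in 3 classes of GC content (right), for all genes tested (grey) and for the genes of the segment (green), with the number of genes at each bar. Medians fell from short to long genes and from low to high GC in both sets, to -0.93 in the 50 longest genes of the segment.

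In map order, the stretch from 128 to 130 Mb held 38 genes, of which 32 were tested, 0 were called higher and 3 were called lower by edgeR (9.38%, against 7.39% of all genes), with 13 at an unadjusted p under 0.05. DESeq2 called 1 higher and 6 lower there, which is to be read against its shares of 16.2% and 12.9% over all genes, and edgeR with upper-quartile factors 1 lower. Its median of -0.80 was the lowest of the 11 windows of 2 Mb. C77080 had 65.7 CPM in B6 against 23.9 (NOD 1) and 19.9 (NOD 2). Both NOD libraries were lower, with a log2 fold change of -1.58 ± 0.36 (SE, edgeR adjusted p = 0.0476). Zbtb8os, which acts with the tRNA ligase complex, was also called lower (43.2, 13.9 and 12.3 CPM). C77080 overlaps Yars, and since reads of both strands were counted together their reads cannot be told apart there. Among genes not called were the histone chaperone Rbbp4 (log2 fold change -0.34 ± 0.27) and the actin regulator Marcksl1 (-0.84 ± 0.22, adjusted p = 0.0617). The T cell kinase Lck had 14.2 CPM in B6, and the NOD libraries lay on either side of it at 9.62 and 20.0 CPM.

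From 130 to 132 Mb, 15 of 18 genes were tested, 1 was higher and 2 were lower (20% called, against 17.7% of all genes). Snrnp40, a protein of the U5 small nuclear ribonucleoprotein of the spliceosome, rose from 138 CPM in B6 to 297 and 336 in NOD (1.20 ± 0.25, adjusted p = 0.0407), a call that upper-quartile factors and scaling by total counts both removed. Nkain1, which encodes a membrane protein that interacts with the sodium pump, fell from 20.5 CPM to 1.63 and 0.794 (-4.07 ± 0.71, adjusted p = 0.0319), and Mecr, an enzyme of mitochondrial fatty acid synthesis, from 72.4 to 21.8 and 26.04. Fabp3, a fatty acid binding protein, was among the most abundant genes of the segment per length, with 594 FPKM in B6 (CPM per kilobase of exon) and 676 ± 160 in NOD (SD, n = 2), and was not called. Of the 50-base words in its transcripts 29.2% also occur in a pseudogene, Fabp3-ps1. The lysosomal protein gene Laptm5 was lower in both NOD libraries, at 61.3 CPM against 21.8 and 22.7, with an adjusted p of 0.0516, and was called in DESeq2, with DESeq2 size factors, with total counts only and with a single dispersion, but in none of the other tests. Sdc3, which encodes a syndecan, had 3.30 CPM in B6 against 0.0303 (NOD 1) and 1.82 (NOD 2), the widest ratio between the NOD libraries among the genes tested with counts in both.

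The stretch from 132 to 134 Mb held the most genes tested, 42, with 1 called higher and 6 lower and a median of 0.07. That is 16.7% of them, against 17.7% of all genes. DESeq2 called 3 higher and 10 lower, to be read against its shares of 16.2% and 12.9% over all genes. The gene called higher was Cd164l2, a relative of the sialomucin Cd164, which had 0 counts in B6 and 222 and 307 in NOD. Against the limit of 3 counts in B6 it was at least 35.8-fold higher in NOD. Wdtc1, a substrate receptor of a ubiquitin ligase, fell from 73.1 CPM to 11.2 and 6.73 (-3.02 ± 0.46, adjusted p = 0.0257). Sfn, the 14-3-3 sigma protein of epithelia, had 639 CPM in B6 against 154 (NOD 1) and 244 (NOD 2) (-1.68 ± 0.32), with 15% of its 50-base words in other genes. The trophectoderm is an epithelium whose marker sums are given above. The part of the embryo's composition in the Sfn value was not tested. Its neighbour Zdhhc18, a palmitoyltransferase, fell from 32.3 CPM to 5.78 and 7.20. Arid1a, a subunit of the SWI/SNF chromatin remodelling complex, had 459 CPM in B6 against 190 (NOD 1) and 112 (NOD 2) (-1.60 ± 0.36, adjusted p = 0.0467). Hmgn2, a nucleosome-binding protein, fell from 199 counts in B6 to 13 and 31 in NOD. Of the 50-base words in its transcripts 25.4% also occur in other genes, among them Hmgn2-ps1, so its level depends on how such reads were placed.

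Other genes of that stretch stood at high levels without a call. Atpif1, the inhibitor of the mitochondrial ATP synthase, was the most abundant gene of the segment per length, at 1085 FPKM in B6 and 907 ± 3.05 in NOD. The nuclear movement protein gene Nudc had 248 CPM in B6 and 239 and 254 in NOD (-0.01 ± 0.23), and 30.3% of its 50-base words also occur in Nudc-ps1. The co-chaperone Dnajc8 (203 CPM in B6, 370 and 414 in NOD) and the replication protein Rpa2 (149, 249 and 302) were above B6 in both NOD libraries, with adjusted p-values of 0.0552 and 0.0773. The kinase Rps6ka1 had 190 CPM in B6 and 126 and 185 in NOD. Smpdl3b, a membrane phosphodiesterase that tunes innate signalling, had 24.5 CPM in B6 against 48.0 (NOD 1) and 56.7 (NOD 2) (1.09 ± 0.38, adjusted p = 0.106).

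From 134 to 136 Mb, 38 of 45 genes were tested, with 1 called higher (2.63%, against 10.3% of all genes) and 3 lower (7.89%, against 7.39%). DESeq2 called 3 higher and 5 lower there, against its shares of 16.2% and 12.9% over all genes. With upper-quartile factors edgeR called 1 higher and 1 lower, against shares of 7.03% and 4.85%. Mtfr1l, which encodes a mitochondrial fission regulator, had the largest increase among called genes with counts in B6. It rose from 35.7 CPM to 220 in NOD 1 and 276 in NOD 2 (2.80 ± 0.32, adjusted p = 0.0212), and the NOD libraries lay far above B6. Since it led the increases, the 250 bases before its start (chr4:134535269-134535518 on the minus strand, RefSeq, GRCm38.p6) are shown here, with the motif GGGCGG in capitals where it occurs on either strand.
Mtfr1l: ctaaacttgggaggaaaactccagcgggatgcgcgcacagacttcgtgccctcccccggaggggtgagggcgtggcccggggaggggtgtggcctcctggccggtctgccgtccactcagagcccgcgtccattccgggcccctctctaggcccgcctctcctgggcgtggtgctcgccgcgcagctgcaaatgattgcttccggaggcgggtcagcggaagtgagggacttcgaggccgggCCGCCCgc
Pafah2, a phospholipase that degrades platelet-activating factor and related lipids, fell from 44.8 CPM to 3.72 and 8.17 (-2.91 ± 0.59). Rsrp1, an arginine and serine rich protein, fell from 155 CPM to 58.0 and 63.4 (-1.35 ± 0.28). Lin28a, which blocks the maturation of let-7 microRNAs, had 81.6 CPM in B6 and 29.2 and 42.9 in NOD and was not called (-1.18 ± 0.39, adjusted p = 0.0950). The splicing factors Srrm1 (504, 483 and 420 CPM) and Syf2 (264, 430 and 426 CPM), the chloride channel protein Clic4 (519, 420 and 480 CPM) and the small protein Sh3bgrl3 (304, 234 and 297 CPM) were abundant and not called.

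The 22 genes tested from 136 to 138 Mb gave 0 calls by edgeR, against 10.3% higher and 7.39% lower over all genes. Of the 22, 6 were at an unadjusted p under 0.05 in that test. DESeq2 called 1 higher, against its share of 16.2% over all genes, and edgeR with total counts only called 1 lower. Cdc42, a small GTPase of cell polarity, had 528 CPM in B6 against 878 (NOD 1) and 1191 (NOD 2) (0.97 ± 0.27, adjusted p = 0.0670). Usp48, a deubiquitinase, was lower in NOD at 336 and 385 CPM against 689 (-0.94 ± 0.21, adjusted p = 0.0475), and missed the call on the size of its change. Several of the genes whose NOD libraries differed most lie here. The transcription inhibitor Id3 had 42.1 CPM in B6 against 1.42 (NOD 1) and 26.9 (NOD 2), and the receptor Ephb2 had 3.74, 0.0908 and 3.82. The elastase gene Cela3b had counts in NOD 1 (54) and none in B6 or NOD 2.

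From 138 to 140 Mb, 22 of 33 genes were tested, with 2 called higher and 3 lower (22.7% called, against 17.7% of all genes), and the median was -0.77. With upper-quartile factors edgeR called 1 higher and 0 lower there. DESeq2 called 2 higher and 5 lower, to be read against its shares of 16.2% and 12.9% over all genes. In the test as reported, 10 of the 22 were at an unadjusted p under 0.05. Ddost, a subunit of the oligosaccharyltransferase of the endoplasmic reticulum, rose from 238 CPM to 785 and 821 (1.75 ± 0.22, adjusted p = 0.0223). Pqlc2, a lysosomal transporter of cationic amino acids, rose from 65.0 CPM to 144 and 164 (1.24 ± 0.29), with an adjusted p of 0.0495 that lies close to the threshold. Cda, cytidine deaminase, had 54 counts in NOD 2 and 0 in both other libraries. The secreted phospholipase gene Pla2g2f had 63 counts in B6 against 0 (NOD 1) and 1 (NOD 2), a ratio of NOD over B6 of 0.00322 with an exact Clopper-Pearson 95% interval up to 0.0186. Ubr4, a large ubiquitin ligase, had 330 CPM in B6 against 118 (NOD 1) and 59.0 (NOD 2) (-1.90 ± 0.44, adjusted p = 0.0486), and Iffo2, an intermediate filament family gene, had 56.7, 15.6 and 9.64 CPM, with 14% of its 50-base words in other genes. The actin capping protein gene Capzb was not called, with 485 CPM in B6 and 298 and 289 in NOD.

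From 140 to 142 Mb, 33 of 39 genes were tested, with 1 called higher and 4 lower (15.2% called, against 17.7% of all genes). DESeq2 called 4 higher and 7 lower, to be read against its shares of 16.2% and 12.9% over all genes. Sdhb, the iron-sulfur subunit of succinate dehydrogenase, rose from 141 CPM to 430 and 461 (1.66 ± 0.24, adjusted p = 0.0242). Rcc2, a regulator of chromosome condensation and passage through mitosis, fell from 536 CPM to 181 and 166 (-1.63 ± 0.22). Epha2, an ephrin receptor, fell from 31.1 CPM to 1.97 and 2.73 (-3.72 ± 0.53, adjusted p = 0.0242). Spen, a transcriptional repressor that acts with Xist RNA in X inactivation, fell from 68.5 CPM to 10.4 and 10.7 (-2.70 ± 0.36, adjusted p = 0.0232), and overlaps Zbtb17. Plekhm2, an adaptor between lysosomes and kinesin, fell from 19.9 CPM to 3.15 and 2.06. Necap2, a protein of clathrin-coated vesicles, had 81.8 CPM in B6 and 48.5 and 64.9 in NOD and was not called.

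**Figure D3:**
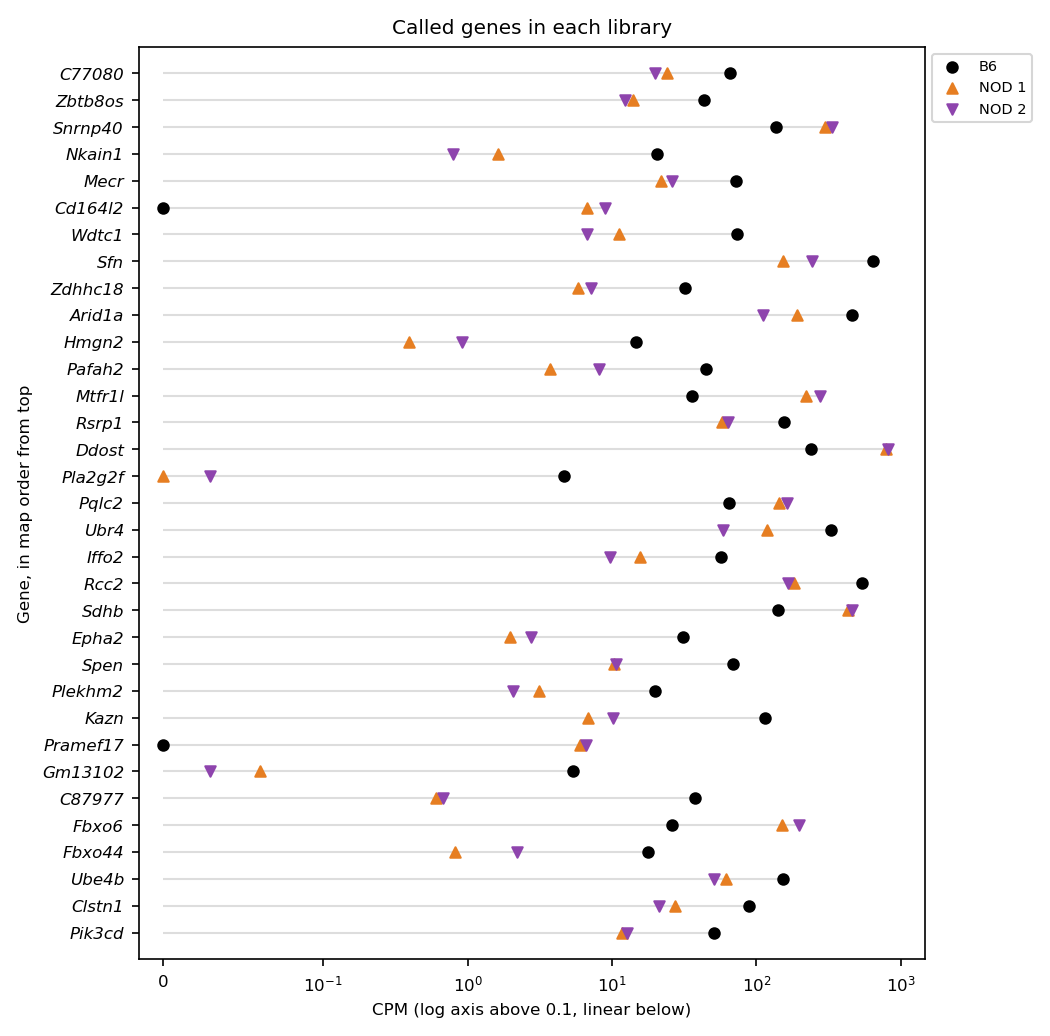
CPM in B6 (circles), NOD 1 (triangles) and NOD 2 (inverted triangles) of 33 of the 36 called genes, in map order from the top, on an axis that is logarithmic above 0.1 CPM and linear below. The NOD libraries of each gene lie on one side of the B6 value, 8 to the right and 25 to the left, and Cd164l2 and Pramef17 stand at 0 in B6.

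From 142 to 144 Mb, 7 of 21 genes were tested. Kazn, which encodes a periplakin-binding protein of epithelial junctions, fell from 115 CPM to 6.84 and 10.1 (-3.76 ± 0.41, adjusted p = 0.0203). Prdm2, a histone methyltransferase, had 91.7 CPM in B6 and 49.5 and 31.2 in NOD and was not called. The Pramel and Oog cluster starts in this stretch and runs into the next, with 26 genes in a row from Pramel1 to Pramef12. Genes of this family encode proteins with leucine-rich repeats, and several are known from oocytes and early embryos.

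Of these 26 genes, 12 had no count in any library and 11 were tested. edgeR called 1 higher (9.09%, against 10.3% of all genes) and 2 lower (18.2%, against 7.39%), and the summed level of the cluster was 190 CPM in B6 against 167 (NOD 1) and 167 (NOD 2). With a single dispersion the calls of Pramef17 and Gm13102 were lost and that of C87977 was kept. Pramef17 had 0 counts in B6 and 198 and 225 in NOD, at least 28.6-fold higher against the limit of 3 counts in B6. Gm13102 had 73 counts in B6 against 2 (NOD 1) and 1 (NOD 2), a ratio of NOD over B6 of 0.00835 (exact Clopper-Pearson 95% interval 0.00168 to 0.0254). C87977 had the largest decrease of the segment among genes of at least 10 CPM on average, from 37.7 CPM in B6 to 0.605 and 0.676 in NOD (-5.87 ± 0.53, adjusted p = 0.0196). The remaining tested genes were not called. Pramel5 had 65.7 CPM in B6 against 86.0 (NOD 1) and 62.1 (NOD 2). Pramel4 had 22.1, 29.0 and 32.1 CPM, Pramef8 had 16.6, 20.1 and 32.0, and Pramef12 had 41.7, 17.5 and 22.3. Oog3 (38 counts in NOD 1) and Gm13125 (46 counts in NOD 2) were each counted in 1 library only.

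**Figure D4:**
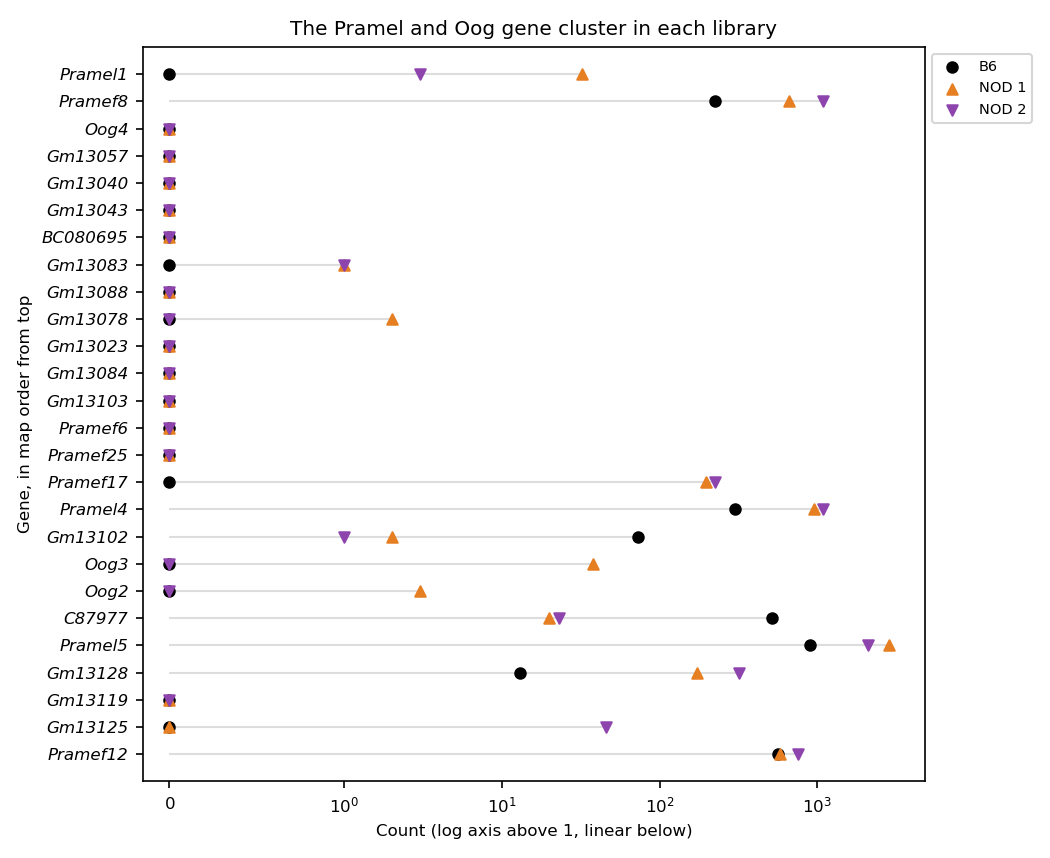
Counts in B6 (circles), NOD 1 (triangles) and NOD 2 (inverted triangles) of the 26 genes from Pramel1 to Pramef12, in map order from the top, on an axis that is logarithmic above 1 count and linear below. For 12 genes the symbols coincide at 0, and Pramef17, Gm13102 and C87977 show the widest gaps between the strains.

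Of the called genes of the cluster, Gm13102 and Pramef17 have near-identical copies within it, and reads of 50 bases cannot always tell the copies apart. Of the 50-base words in the transcripts of Gm13102, 95.9% also occur in other genes, mainly Pramel4, and 73.5% of those of Pramef17 also occur in Gm13128. The shares were 24.0% for C87977 and 87.4% for Pramel4. In their coding sequences Pramef17 and Gm13128 were identical at 1415 of 1425 aligned bases. Pramel4 and Gm13102 differed at 1 of 1509 aligned bases, beside 48 positions in gaps. The stretch of 60 coding bases in which Pramef17 (chr4:143991490-143991549 on the minus strand, GENCODE M21, GRCm38) and Gm13128 (chr4:144333043-144333102 on the plus strand) differ most is shown to make this visible, with the 3 bases that differ in capitals.
Pramef17: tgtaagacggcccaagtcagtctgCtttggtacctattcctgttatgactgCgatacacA
Gm13128: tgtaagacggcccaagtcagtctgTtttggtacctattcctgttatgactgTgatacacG
Gm13128 had 13 counts in B6 against 172 (NOD 1) and 319 (NOD 2) and was not called (adjusted p = 0.0862), with a ratio of NOD over B6 of 7.67 (exact Clopper-Pearson 95% interval 4.45 to 14.5). Summed over the pair, Pramef17 and Gm13128 had 0.954 CPM in B6 against 11.2 (NOD 1) and 15.99 (NOD 2), so the pair was higher in NOD as well as its called copy. The sum of Pramel4 and Gm13102 was 27.5 CPM in B6 against 29.1 (NOD 1) and 32.1 (NOD 2), which lacks the fall of Gm13102 alone.

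The sequences before the starts of these copies were compared as well, because they differ more than the coding parts do in the case of Pramel4 and Gm13102. The 250 bases before the RefSeq starts were identical at 97.2% of aligned positions between Pramef17 (chr4:143994370-143994619 on the minus strand, GRCm38.p6) and Gm13128 (chr4:144329999-144330248 on the plus strand), and at 88.0% between Pramel4 (chr4:144058875-144059124 on the plus strand) and Gm13102 (chr4:144099630-144099879 on the plus strand). Bases that differ from the other copy, including those opposite a gap, are in capitals.
Pramef17: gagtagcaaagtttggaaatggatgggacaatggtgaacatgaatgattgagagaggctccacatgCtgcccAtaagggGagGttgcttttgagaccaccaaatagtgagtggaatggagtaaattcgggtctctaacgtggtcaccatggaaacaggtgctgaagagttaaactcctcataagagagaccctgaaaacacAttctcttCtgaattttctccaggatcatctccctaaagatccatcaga
Gm13128: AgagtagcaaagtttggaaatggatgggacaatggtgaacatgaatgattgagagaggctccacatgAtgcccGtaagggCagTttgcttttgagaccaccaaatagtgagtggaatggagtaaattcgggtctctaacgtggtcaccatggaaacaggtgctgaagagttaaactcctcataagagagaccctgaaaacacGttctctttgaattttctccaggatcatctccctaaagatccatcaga
Pramel4: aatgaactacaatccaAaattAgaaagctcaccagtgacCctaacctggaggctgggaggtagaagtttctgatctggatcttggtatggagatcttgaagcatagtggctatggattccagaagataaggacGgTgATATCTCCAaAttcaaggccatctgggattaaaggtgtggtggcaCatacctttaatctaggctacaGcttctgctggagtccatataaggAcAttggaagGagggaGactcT
Gm13102: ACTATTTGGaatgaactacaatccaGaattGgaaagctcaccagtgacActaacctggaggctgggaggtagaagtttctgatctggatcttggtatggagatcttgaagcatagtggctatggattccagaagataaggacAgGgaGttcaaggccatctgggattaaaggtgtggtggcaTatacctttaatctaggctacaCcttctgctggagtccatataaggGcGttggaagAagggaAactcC
The 250 bases before the start of C87977 (chr4:144213018-144213267 on the minus strand), which had the largest decrease among genes of at least 10 CPM on average, are shown with the motif CCAAT in capitals.
C87977: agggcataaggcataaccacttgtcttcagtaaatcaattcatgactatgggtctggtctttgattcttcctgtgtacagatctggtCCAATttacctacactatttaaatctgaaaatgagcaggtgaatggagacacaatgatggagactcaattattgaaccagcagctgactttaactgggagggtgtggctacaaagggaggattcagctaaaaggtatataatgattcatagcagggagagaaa
These are the sequences of the reference genome, which is that of B6. NOD reads were aligned to it, and the part of sequence differences between the strains in the counts of this cluster was not tested.

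Beyond the Pramel genes, from 144 to 146 Mb, lie the candidates Tnfrsf1b and Tnfrsf8. Tnfrsf1b had 0 counts in B6 against 2 (NOD 1) and 20 (NOD 2), and Tnfrsf8 had 0, 58 and 26. The NOD 1 level of Tnfrsf1b, 0.0605 CPM, lay under the B6 limit of 0.220 CPM, so that a higher level than in B6 rests on NOD 2 alone. Against the limit of 3 counts in B6, Tnfrsf8 was at least 5.69-fold higher over both NOD libraries and at least 3.47-fold higher in NOD 2 alone. Neither gene was called (edgeR adjusted p = 0.286 and 0.104). Their highest level in a library was 0.588 CPM and 1.76 CPM.

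The KRAB zinc finger cluster follows, with 11 genes in a row from Gm13212 to Gm13157. None of their symbols in the table begins with Zfp, so the symbol rule kept them. All 11 were tested, and edgeR called 0, against 17.7% of all genes, with 2 at an unadjusted p under 0.05. DESeq2 also called 0, against its shares of 16.2% higher and 12.9% lower over all genes. limma-voom called 0 in the whole table, so its 0 here says nothing of the cluster. The summed level was 208 CPM in B6 against 217 (NOD 1) and 204 (NOD 2). 2610305D13Rik, the most abundant in NOD, had 60.4 CPM in B6 and 89.4 and 104 in NOD (0.68 ± 0.31). Gm13154 had 74.3, 68.7 and 58.7 CPM, Gm13152 had 17.4, 15.8 and 13.4, and Gm13157 had 33.6, 15.3 and 9.35 (-1.45 ± 0.49, adjusted p = 0.0984). Gm13247 had 3.23 CPM in B6 and 9.80 and 8.46 in NOD. The 50-base words shared with other genes were between 11.9% for Gm13152 and 89.1% for Rex2, so levels of single genes of this cluster depend on where shared reads were placed.

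The 15 genes tested from 146 to 148 Mb gave 0 calls by edgeR, against 10.3% higher and 7.39% lower over all genes. Of the 15, 3 were at an unadjusted p under 0.05 in that test. DESeq2 called 1 higher, against its share of 16.2% over all genes. Miip, an inhibitor of cell migration, had 81.1 CPM in B6 and 52.0 and 56.0 in NOD. The retroviral restriction gene Fv1 had 17 counts in NOD 2 and 0 in both other libraries.

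From 148 Mb to the end at 150 Mb, 32 of 36 genes were tested, with 1 called higher and 4 lower (15.6% called, against 17.7% of all genes). The neighbouring F-box genes Fbxo6 and Fbxo44, which encode substrate receptors of ubiquitin ligases, were called in opposite directions. Fbxo6 rose from 26.1 CPM in B6 to 151 and 198 in NOD (2.74 ± 0.36, adjusted p = 0.0231). Fbxo44 fell from 17.8 CPM to 0.817 and 2.204 (-3.55 ± 0.80, adjusted p = 0.0471), a call that upper-quartile factors removed. Both lie on the minus strand with starts 7959 bases apart and share no 50-base word with another gene. The 250 bases before the starts of Fbxo6 (chr4:148152136-148152385 on the minus strand) and Fbxo44 (chr4:148160095-148160344 on the minus strand) are shown because these neighbours were called in opposite directions, with GGGCGG in capitals.
Fbxo6: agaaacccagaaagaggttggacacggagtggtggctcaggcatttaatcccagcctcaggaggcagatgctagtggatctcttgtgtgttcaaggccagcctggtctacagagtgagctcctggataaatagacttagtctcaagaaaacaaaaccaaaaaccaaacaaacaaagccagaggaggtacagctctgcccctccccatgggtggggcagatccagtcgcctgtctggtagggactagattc
Fbxo44: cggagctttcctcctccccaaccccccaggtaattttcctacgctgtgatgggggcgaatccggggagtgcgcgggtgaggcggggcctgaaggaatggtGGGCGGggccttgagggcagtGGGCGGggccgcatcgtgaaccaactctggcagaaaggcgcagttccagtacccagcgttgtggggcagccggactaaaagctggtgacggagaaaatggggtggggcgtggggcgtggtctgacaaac
GGGCGG was found before Fbxo44 and not in this window of Fbxo6. The motif GGGCGG, and besides it the motif CCAAT and the motif TATAAA, were searched on both strands in the 250 bases before each start. Among 246 genes of the segment with a matching RefSeq start, GGGCGG was present in 51.6%, against 32.7% of 32851 starts in all. CCAAT was present in 35.0% against 33.8%, and TATAAA in 7.32% against 12.4%. The starts in all can hold several for a gene and were not chosen by the symbol rule, so the sets are unlike. The part of GC content in these shares was not tested. GGGCGG was present before 3 of 6 genes called higher and 15 of 22 called lower. A match describes letters, not a bound site.

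In the same stretch, Mad2l2, a protein of DNA repair and germ cell development, had 45.1 CPM in B6 and 85.2 and 95.6 in NOD and was not called (adjusted p = 0.0925). Mtor, the kinase of the growth pathway of that name, had 27.7 CPM in B6 against 51.8 (NOD 1) and 22.4 (NOD 2), so that the NOD libraries lay on either side of B6. Srm, spermidine synthase, had 309 CPM in B6 and 552 and 565 in NOD (0.85 ± 0.21, adjusted p = 0.0559), and the RNA-binding protein Tardbp had 425, 508 and 552 CPM. Pgd, of the pentose phosphate pathway, had 379, 229 and 217 CPM (-0.76 ± 0.22, adjusted p = 0.0715). The ubiquitin ligase Ube4b fell from 154 CPM to 61.8 and 50.8 (-1.45 ± 0.30), and Clstn1, which encodes a calsyntenin that links cargo to kinesin, from 89.5 to 27.4 and 21.04 (-1.88 ± 0.36).

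Pik3cd lies next to Clstn1 and encodes the leukocyte catalytic subunit of phosphoinositide 3-kinase. It had 50.9 CPM in B6 against 11.8 (NOD 1) and 12.6 (NOD 2), and was lower in NOD (-2.06 ± 0.38, adjusted p = 0.0342).

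The immune list held 23 genes in the table, 17 of them tested, with 0 called higher and 1, Pik3cd, called lower by edgeR (5.88%, against 7.39% of all genes) and 6 at an unadjusted p under 0.05. DESeq2 also called 0 higher, with 2 lower, against its shares of 16.2% and 12.9% over all genes. The median log2 fold change of the list was 1.18 as fitted, and 0.42 with the 8 genes at 0 counts in B6 set to their lower bounds. Those 8 passed the filter only through NOD, so the sign of the median is in part set by the filter and is not read here. They were low in NOD as well. Cd52, a small glycoprotein of lymphocytes, had 35 and 51 counts in NOD. The complement genes C1qc (2 and 13 counts) and C1qa (20 and 4), the platelet-activating factor receptor Ptafr (0 and 26) and Themis2, a signalling adaptor of B cells and macrophages (0 and 17), were fewer. The other 3 were Tnfrsf1b, Tnfrsf8 and Fv1. Casp9, the initiator caspase of the mitochondrial pathway, had 34.5 CPM in B6 and 13.4 and 16.6 in NOD (-1.20 ± 0.41, adjusted p = 0.102) and overlaps Cela2a. The complement protease gene Masp2, which overlaps Tardbp on the other strand, had 10.1, 4.90 and 2.88 CPM. Pla2g5 (2.202, 4.39 and 3.73 CPM) and the peptidylarginine deiminase gene Padi4 (1.03, 1.51 and 3.15 CPM) were low in all 3 libraries. A further 6 genes of the list had fewer than 10 counts in each library, and of these Fgr and Il22ra1 had none. Tnfrsf9, a receptor gene beyond the 150 Mb limit, had 2.86 CPM in B6 and 5.66 and 4.79 in NOD and was not called. Tnfrsf4, also beyond that limit, had 1.835 CPM in B6 and 0.0303 and 0.529 in NOD and was not called. There too, Tnfrsf25 had counts in NOD 2 only (58), Tnfrsf14 in B6 only (2), and Tnfrsf18 had none.

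**Figure D5:**
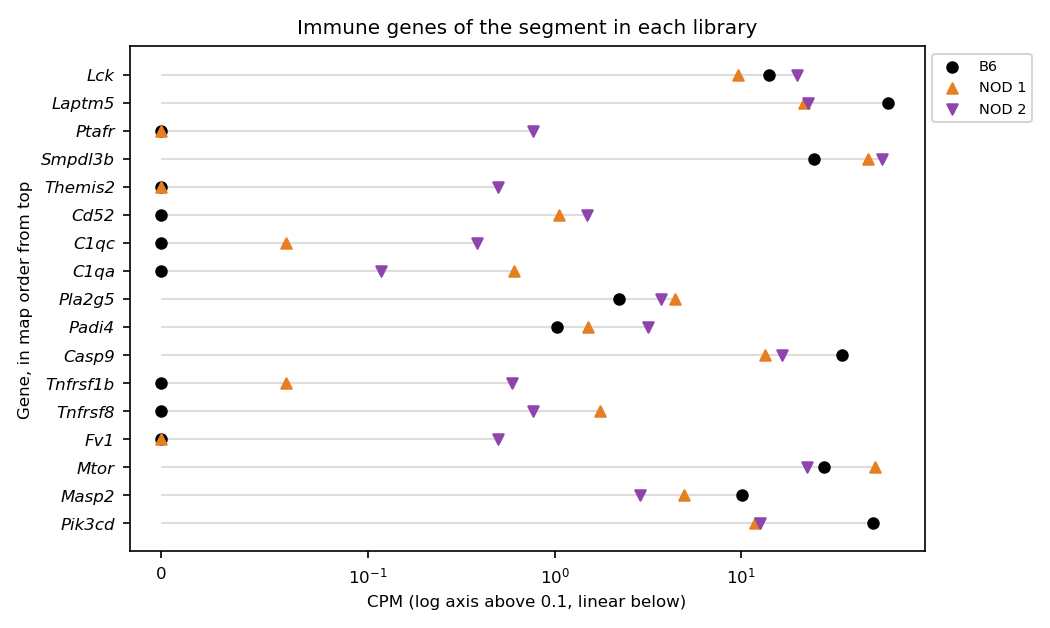
CPM in B6 (circles), NOD 1 (triangles) and NOD 2 (inverted triangles) of the 17 immune genes with at least 10 counts in a library, in map order from the top, on an axis that is logarithmic above 0.1 CPM and linear below. For 8 genes B6 stands at 0, and Pik3cd stands at 50.9 CPM in B6 and at 11.8 and 12.6 CPM in NOD.

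Set out by role, the groups of the segment are given by their counts, to be read beside the shares over all genes (10.3% called higher and 7.39% lower) and over the segment (2.94% and 10.3%). The shares over all genes were 16.2% and 12.9% in DESeq2 and 7.03% and 4.85% with upper-quartile factors. Of 36 genes of chromatin and transcription tested, edgeR called 6 lower (16.7%; Zbtb8os, Arid1a, Hmgn2, Ubr4, Rcc2 and Spen) and 0 higher, with 14 at an unadjusted p under 0.05 and a median of -0.62. DESeq2 called 11 lower and 0 higher in that group, and edgeR with upper-quartile factors 3 lower. Of the 6, Ubr4 is a ubiquitin ligase and Zbtb8os a factor of tRNA ligation, whose known roles lie outside chromatin. Of 30 genes of signalling and apoptosis, 5 were lower (16.7%; Wdtc1, Zdhhc18, Fbxo44, Ube4b and Pik3cd) and 1 higher (Fbxo6), with a median of -0.53 and 3 lower with upper-quartile factors. Of 29 genes of epithelium and adhesion, 4 were lower (13.8%; Sfn, Epha2, Plekhm2 and Kazn) and 0 higher, with 11 at an unadjusted p under 0.05 and a median of -0.21. DESeq2 called 1 higher and 5 lower there, and edgeR with upper-quartile factors 2 lower. Plekhm2 in this group is known for lysosome transport rather than for adhesion. The part of the trophectoderm and inner cell mass marker levels given above in this group was not tested. Genes of metabolism and mitochondria were divided, with 3 higher (Mtfr1l, Ddost and Sdhb) and 4 lower (11.1%, Mecr among them) of 36, and a median of -0.20. DESeq2 called 4 higher and 7 lower there. Of 18 genes of RNA binding and translation, 1 was higher (Snrnp40, lost with upper-quartile factors) and 0 lower by edgeR, with 9 at an unadjusted p under 0.05, 3 called lower by DESeq2 and a median of -0.08. Over genes of the early embryo and germ line, 18 tested, 1 was higher (Pramef17) and 4 were lower (22.2%; Sfn, Rcc2, Gm13102 and C87977), with a median of 0.32. DESeq2 called 1 higher and 6 lower in it. The 8 markers of oocytes and maternal RNA summed to 32.5 CPM in B6 against 11.9 (NOD 1) and 6.70 (NOD 2), with 0 of the 6 tested called by edgeR or DESeq2 and 1 at an unadjusted p under 0.05, and their part in this group was not tested. Some genes stand in more than 1 group. In the tandem families, 28 genes tested, 2 were higher and 4 lower (14.3%; 5 higher and 4 lower in DESeq2, 2 and 2 with upper-quartile factors), with a median of 1.14 as fitted and 0.80 with the 8 genes at 0 in B6 at their bounds. Those 8, like 4 of the early embryo genes, passed the filter only through NOD, which in part sets these medians.

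The spread between NOD libraries was smaller for called genes than for the segment as a whole. The median ratio of the higher to the lower NOD library was 1.26 over the 35 called genes with counts in both, with a largest value of 2.70 for Fbxo44, and 1.42 over 250 tested genes, with a largest value of 60.2 for Sdc3. A call requires a small spread, so this follows in part from the rule.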

How the data were processed

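Untreated blastocysts of B6 (1 library) and NOD (2 libraries) were measured by low-input RNA-Seq (SMART-Seq V4), and samples were grouped by strain. The authors amplified cDNA with PCR, mapped 50-base single-end reads with STAR to the mm10 build (2.2.0c in the submitters' processing notes, a different version in the study's methods) and used HOMER to count reads over exons, with 1 RefSeq transcript for each gene and no regard to strand. What they deposited is these raw counts, without normalization. PCR copies without molecular identifiers are not independent molecules, and the handling of multi-mapping reads is not given in the sources used here. Nothing says that the NOD libraries came from separate litters, so p-values measure the spread between these libraries.

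The whole table was tested with edgeR 4.0.16 in R 4.3.3 (quasi-likelihood test with trended dispersion, filterByExpr with a minimum count of 10, TMM factors, Benjamini-Hochberg over 14456 genes), and the code was tested on simulated counts. Standard errors derive from the fitted fold change and its F statistic. Genes with 0 counts in a group were compared with a limit of 3 counts, and ratios with few counts have Clopper-Pearson 95% intervals of counting error. DESeq2 1.42.0, limma 3.58.1, other scalings, no filter, a single dispersion and leaving out each NOD library were alternatives. GC content, coding sequences and 50-base words came from GENCODE M21, and the sequences before gene starts from RefSeq (GRCm38.p6), aligned with Biopython 1.88. Shared words were counted for 341 of the 342 genes.

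The segment and the gene lists were chosen with earlier results of these data known, and the 2 clusters by position and the single dispersion were added after seeing the data. Genes were named by rule: immune genes with at least 10 counts in a library, the 10 most abundant per length, the 10 largest changes each way among called genes of at least 10 CPM, called genes at 0 in a group, the 5 most abundant with a log2 change under 0.25 and the 6 most abundant of each list. The rule also named the 5 with the widest ratio between NOD libraries, above a minimum count in the higher of them. The other called genes, the genes of the 2 clusters and the Tnfrsf genes beyond 150 Mb were named besides, after their values were seen. Counts, medians and shares cover all genes of the segment, and 3 of the called genes are not reported here by name. Genes of the segment left out by the symbol rule stayed in the fit and are not described, and other data of the study were not analysed here.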

Additional observations from a re-analysis of the deposited data

How the results depend on the processing

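Of the 36 calls in the segment, 35 were kept with DESeq2 size factors and 36 in DESeq2. With total counts only 33 were kept (losing Snrnp40, Pqlc2 and Ubr4). With upper-quartile factors 21 were kept (losing, besides these, C77080, Zbtb8os, Mecr, Sfn, Arid1a, Pafah2, Rsrp1, Pla2g2f, Iffo2, Plekhm2, Fbxo44 and Ube4b). With a single dispersion, added after seeing the data, 32 were kept (losing Cd164l2, Pla2g2f, Pramef17 and Gm13102). The 36 genes kept their direction under each of these, without a filter, in limma-voom and without either NOD library. For each of them both NOD libraries lay on one side of B6, so leaving out 1 library could not turn the direction. The other settings refit the same libraries. The number called higher, 8 in the test as reported, was between 6 and 7 under the other edgeR scalings, the single dispersion, without overlapping genes and without tandem families, 21 in DESeq2 (7.72%, against 16.2% of all genes), and 0 without a filter on low counts and in limma-voom. The number called lower, 28 as reported, was 44 in DESeq2 (16.2%, against 12.9% of all genes), 15 with upper-quartile factors (5.51%, against 4.85%), and 0 without a filter and in limma-voom. Those 0 calls hold for the whole table as well, and 98 genes of the segment had an unadjusted p under 0.05 without a filter and 77 in limma-voom. The median log2 fold change of the segment, -0.18 as reported, was -0.22 with DESeq2 size factors and in DESeq2, -0.36 with total counts only, -0.13 without a filter and -0.24 without tandem families, and -0.14 to -0.09 when 1 NOD library was left out. Total counts only also moved the median of all genes, from 0.26 to 0.07, and the segment stayed -0.44 relative to it. Without NOD 1 the segment lay -0.26 from the median of all genes (0.17), and without NOD 2 -0.25 (0.11). Under the other settings it lay between -0.50 and -0.38 from it. With both NOD libraries in the fit, the direction turned among named genes not called for Lck (-0.13 with total counts, -0.03 in limma-voom). It also turned for Fabp3 (-0.00), Pramel5 (-0.01), Gm13212 (-0.08) and Gm13242 (-0.02) with total counts. For Nudc it turned with upper-quartile factors (0.00) and without a filter (0.02). Leaving out a NOD library also turned the direction of genes whose NOD libraries lay on either side of B6, Lck and Fabp3 among them. Total counts, DESeq2 size factors and upper-quartile factors differ from the test as reported in the scaling factors alone. How these or the other settings lead to the differences was not tested. No paired analysis was possible because there is only 1 B6 library. With 1 B6 library the test cannot be run without it, and leaving out a NOD library leaves values with no test. The B6 library, with 12505685 counts, sets the depth limit for genes at 0.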
